A study of Mus musculus with 9 samples.

Results

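Solute carriers are the large superfamily of membrane proteins that move amino acids, sugars, metals, lactate, nucleosides and ions across the plasma membrane and organelle membranes. The mitochondrial Slc25 carriers, 11 genes here, were left out. A gene counted as a member if an array feature was annotated to it alone, its symbol began with Slc and a digit, and each group measured it on 2 or more arrays. These conditions gave 48 genes on 61 features, out of 65 such genes on 80 features of the platform and out of 4776 genes that met the same condition on values. The other 17 genes, among them the glucose transporter gene Slc2a2 and the cystine transporter gene Slc7a11, had too few values and were not tested. By substrate the 48 comprised 13 genes for amino acids and related amines, 1 for glucose, 6 for metals and 3 for lactate and related monocarboxylates. There were 1 for nucleosides, 5 for inorganic ions, 7 of the Slc35 family, classed with nucleotide sugars, 7 for lipids and organic ions, 2 for vitamins and 3 others. The 3 others are the urea transporter genes Slc14a1 and Slc14a2 and Slc7a6os, which met the symbol condition although its product is not a transporter.

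The study set castrated C57BL/6 mice against sham-operated ones on dual-colour arrays, 3 pairs of mice in each of 3 groups. Young bone and young bone marrow came from mice of 17 weeks, and the old group, labelled bone marrow, from mice of 59 weeks. Castration was at 7 weeks in all of them, so the young groups were examined sooner after castration than the old group, and age and time since surgery cannot be told apart. Long bones of the legs and the upper arm were collected. The removal of marrow is described for the young animals, and whether the old specimens also held bone is not stated. Each replicate of a group is a different pair of mice, and whether bone and marrow of the same number came from the same mice is not stated. Every value is a ratio of 2 dyes, so neither the level of a gene nor the purity of a tissue can be read from these arrays. A change in the number of cells of a type and a change in RNA per cell cannot be told apart in such whole-tissue RNA.

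Values are printed as deposited and read as log2 ratios. The labels present all 9 arrays as castrated set against sham, so a value above 0 is taken as higher in the castrated mouse. This castrated-over-sham reading is likely from the labels but is nowhere stated. The castrated mouse was in Cy3 and not Cy5 on young bone 3, young marrow 2 and old 2, called swapped arrays below. If the ratio was instead kept as Cy5 over Cy3, called the channel reading, these 3 arrays change sign. Each array held values for 8290 to 10995 of 11552 features. Across features the SD ran from 0.192 to 0.294, apart from old 1 with 0.454 and a median of -0.11. The number of arrays limits the precision.

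Blood-forming tissue draws heavily on these transporters. Dividing precursors take up amino acids through exchangers that share the Slc3a2 heavy chain, red cell precursors import iron, heme, folate and glycine, and glycolytic cells export lactate through the Slc16 family, which needs a chaperone such as basigin or embigin to reach the cell surface. Zinc is sent into the secretory pathway by Slc30 proteins and into the cytosol by Slc39 proteins, and copper enters through Slc31a1. Castration removes testicular androgen, which acts on both bone and marrow.

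Among the 48 genes the zinc transporter gene Slc30a5 was the one that passed the test in the average over the 3 groups, with a ratio above 0 under the castrated-over-sham reading. No member passed in young bone, young marrow or the old group alone, and none passed under the channel reading. The phosphate transporter gene Slc20a2 was above 0 on all 9 arrays, and the copper transporter gene Slc31a1, the zinc and manganese importer gene Slc39a8 and the fatty acid transporter gene Slc27a2 were below 0 on all 9. Of the members with 9 values, 1 of 39 was thus above 0 throughout, against 1.89% of the rows with 9 values, and 3 of 39 (7.69%) were below 0 throughout, against 2.41%. These are the signs as deposited, and under the channel reading they turn on the swapped arrays.

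Promoters were set beside these members where a RefSeq window was at hand, and 35 of the 48 genes had at least 1. Windows run from 250 bases before to 50 bases after the annotated start, in mouse build GRCm38.p6. Those of Slc30a5, Slc31a1 and Slc27a2 are shown because these genes lead the average or keep a single sign, and that of Slc16a1 because its effect is the largest in size under the channel reading. Capitals mark matches, on either strand, to CACGTG (an E-box), AGAACA (the short androgen receptor motif) and TGCACNC or TGCGCNC (the core of the metal response element).
Slc30a5, chr13:100833378-100833677, minus strand: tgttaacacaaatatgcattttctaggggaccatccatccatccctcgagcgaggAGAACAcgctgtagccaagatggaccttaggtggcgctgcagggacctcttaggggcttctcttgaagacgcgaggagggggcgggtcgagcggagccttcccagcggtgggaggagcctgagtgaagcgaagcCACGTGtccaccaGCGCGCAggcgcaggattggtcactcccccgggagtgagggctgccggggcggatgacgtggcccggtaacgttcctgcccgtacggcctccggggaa
Slc31a1, chr4:62360451-62360750, plus strand: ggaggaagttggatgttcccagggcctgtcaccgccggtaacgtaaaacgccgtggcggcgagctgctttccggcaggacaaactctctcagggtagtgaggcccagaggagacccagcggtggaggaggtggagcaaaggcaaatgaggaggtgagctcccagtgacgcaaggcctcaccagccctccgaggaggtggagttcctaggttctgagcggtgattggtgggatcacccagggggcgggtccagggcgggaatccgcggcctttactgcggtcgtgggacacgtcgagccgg
Slc27a2, chr2:126552774-126553073, plus strand: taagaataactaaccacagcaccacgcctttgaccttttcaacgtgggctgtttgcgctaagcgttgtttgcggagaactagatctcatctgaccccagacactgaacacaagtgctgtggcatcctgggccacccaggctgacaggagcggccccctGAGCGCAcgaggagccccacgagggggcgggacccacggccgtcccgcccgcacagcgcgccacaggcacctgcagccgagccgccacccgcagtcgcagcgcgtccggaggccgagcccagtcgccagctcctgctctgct
Slc16a1, chr3:104638414-104638713, plus strand: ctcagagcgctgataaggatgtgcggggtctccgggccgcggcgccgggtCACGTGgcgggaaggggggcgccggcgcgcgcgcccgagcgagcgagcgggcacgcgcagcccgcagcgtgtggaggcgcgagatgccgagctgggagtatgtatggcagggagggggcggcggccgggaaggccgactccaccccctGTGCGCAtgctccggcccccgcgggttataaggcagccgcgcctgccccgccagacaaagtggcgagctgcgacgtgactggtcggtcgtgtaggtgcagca
CACGTG stood once in the window of Slc30a5 and once in that of Slc16a1, beginning 61 and 200 bases before the start. It was in 8 of the 46 member windows (17.4%), those of Slc16a1, Slc20a1, Slc22a4, Slc30a5, Slc36a1, Slc38a5, Slc39a8 and Slc43a1, against 7.15% of all 32851 windows. AGAACA was in 13.0% of member windows against 19.0% of all, and the Slc30a5 window held 1 match. The full androgen response element, AGAACA followed after 3 bases by its reverse complement, was in none of the member windows and in 3 of all windows. TGCACNC was in 19.6% of member windows against 12.6%, and TGCGCNC in 28.3% against 15.4%. TGCGCNC matched once each in the windows of Slc30a5, Slc16a1 and Slc27a2, and the Slc31a1 window held none of the motifs searched. The motifs do not overlap one another in the windows shown. Median GC content was 61.8% in member windows and 52.7% in all windows, which bears on motifs rich in G and C. A match describes the letters only.

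The average is the mean of the 3 group effects and asks whether it differs from 0. A single group can carry it, so a call is not a change shared by all groups. Of the 7171 rows tested, 280 (3.9%) had an adjusted p under 0.05 in limma, and so had 1 of the 48 members, Slc30a5. Rows past that threshold and above 0 made up 1.95%. At an unadjusted p under 0.05 there were 10 members (20.8%) against 16.0% of all rows. Of these, 4 lay above 0 (Slc1a5, Slc20a2, Slc30a5 and Slc38a1), against 7.0% of all rows. The other 6 lay below (Slc27a2, Slc31a1, Slc35f1, Slc36a1, Slc38a5 and Slc6a8), against 9.04%. The members' median was -0.02 and that of all rows -0.002, with 19 members above 0 and 29 below. Effects of members ran from -0.265 to 0.224, with a median size of 0.053 against 0.063 for all rows and a median standard error (SE) of 0.066. Under the castrated-over-sham reading the typical effect of a member was thus no larger than that of all rows and about the size of its error. By channel the median size was 0.082 for members, with a median SE of 0.072, against 0.06 for all rows. Read by channel, the median was -0.047 against -0.002 for all rows, with 17 members above 0 and 31 below, and 0 of 7171 rows passed in limma. At the unadjusted level 337 rows (4.7%) remained, and 5 members, all below 0, where 3.21% of all rows lay. They were Slc16a1, Slc20a1, Slc22a23, Slc9a8 and Slc14a1.

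**Figure D1:**
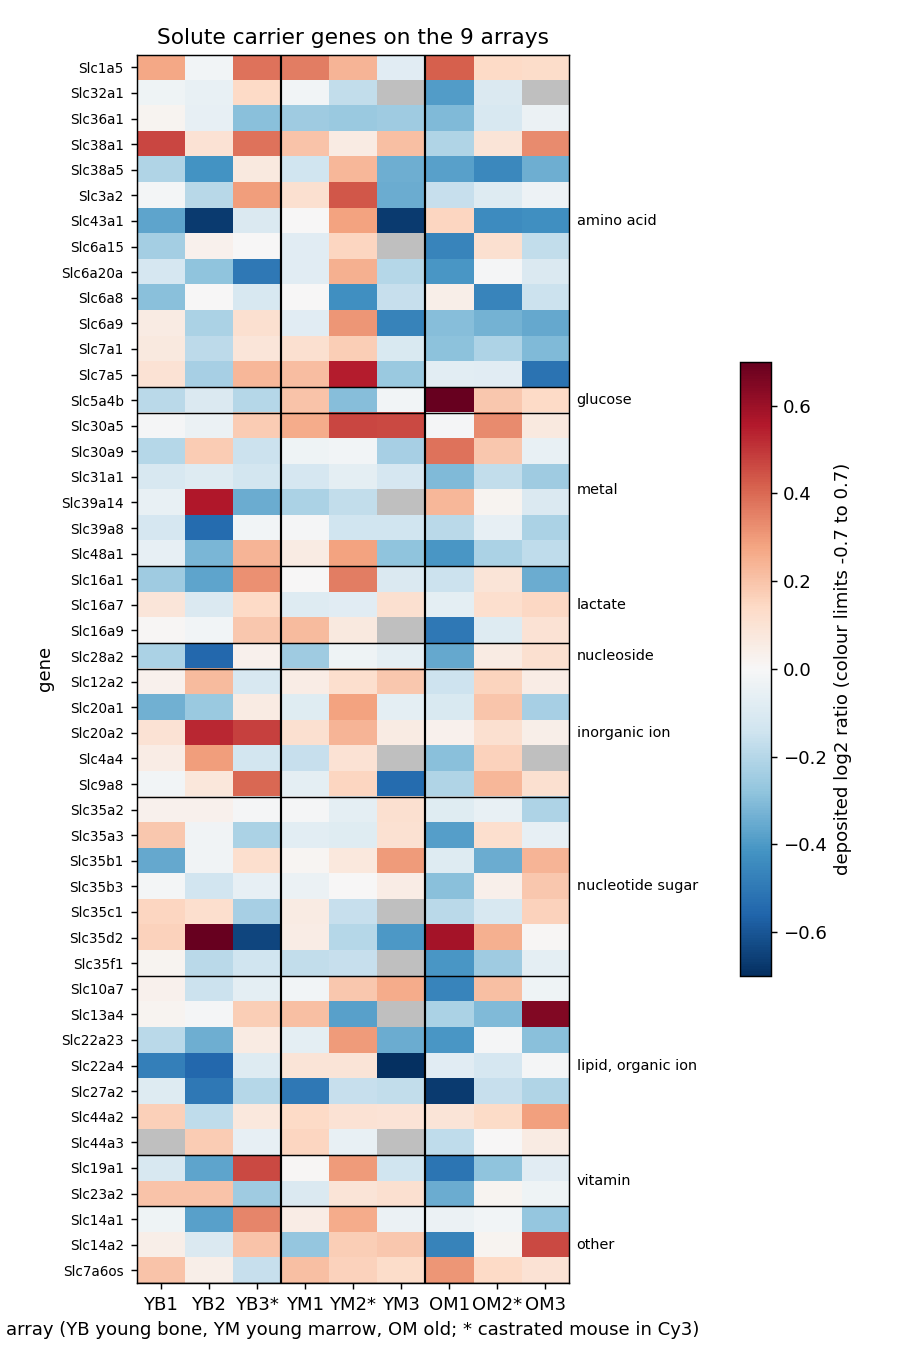
Deposited log2 ratios of the 48 solute carrier genes (rows, by substrate class) on the 9 arrays (columns), with red above 0, blue below 0, values beyond 0.7 in either direction at the end colours, and missing values in grey. Slc20a2 is red in every column, and Slc27a2, Slc31a1 and Slc39a8 are blue in every column. Several amino acid rows, such as Slc7a5 and Slc3a2, are reddest on the swapped array young marrow 2.

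Amino acid transporters formed the largest class. In the average 4 of the 13 were above 0 and 9 below, none past the threshold, with a median of -0.099. The medians by group were 0.012 in young bone, 0.009 in young marrow and -0.165 in the old group, where 11 of the 13 lay below 0. All rows had medians of -0.006, -0.004 and -0.039 in those groups. By channel the class medians were -0.054, -0.115 and -0.052, with 9, 10 and 10 of the 13 below 0, so the lower old group is seen under the castrated-over-sham reading alone.

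Glutamine carriers lay on both sides of 0 in the average. By channel no average of the class was above 0.12, so the average effects of Slc1a5 and Slc38a1 depend on the reading. Slc1a5, a sodium-coupled exchanger of glutamine and other neutral amino acids, had ratios of 0.27, -0.02 and 0.38 in young bone, 0.36, 0.24 and -0.08 in young marrow, and 0.42, 0.14 and 0.13 in the old group. It was above 0 on 7 of 9 arrays, with an average effect of 0.217 (SE 0.071, limma adjusted p = 0.144). Slc38a1, another glutamine importer, gave 0.47, 0.10 and 0.38 in young bone, 0.20, 0.06 and 0.21 in young marrow, and -0.21, 0.09 and 0.33 in the old group. It was above 0 on 8 of 9 arrays and lowest on old 1, with an average effect of 0.18 (SE 0.071, limma adjusted p = 0.237). Its relative Slc38a5 went the other way, at -0.21, -0.42 and 0.07 in young bone, -0.14, 0.23 and -0.34 in young marrow, and -0.38, -0.45 and -0.34 in the old group. The 2 values above 0 were those of the swapped arrays of the young groups, while the old arrays lay close together at -0.39 ± 0.056 (SD, n = 3). The effect of Slc38a5 in the old group was -0.348 (SE 0.107, limma adjusted p = 0.19), the smallest p of any member there. Without old 2 it was -0.146 (adjusted p = 0.698), and without old 3 -0.415 (0.045). By channel, where old 2 changes sign, the old effect was -0.031 (limma adjusted p = 0.982).

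Below 0 with little scatter was Slc36a1, which returns amino acids from lysosomes to the cytosol. Young marrow gave -0.25, -0.26 and -0.25, young bone 0.02, -0.06 and -0.29, and the old group -0.31, -0.11 and -0.04. As deposited, the 3 marrow arrays were nearly equal and 8 of 9 arrays lay below 0. Under the channel reading the swapped values change sign, at -0.29 in young bone, -0.26 in young marrow and -0.11 in the old group. The agreement of the marrow arrays across dye orientations therefore depends on the reading. Under the castrated-over-sham reading the average effect of Slc36a1 was -0.184 (SE 0.056, limma adjusted p = 0.115), and the marrow effect was -0.265 (SE 0.093, adjusted p = 0.333).

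The creatine transporter gene Slc6a8 was at -0.29, 0 and -0.11 in young bone, 0, -0.43 and -0.16 in young marrow, and 0.04, -0.46 and -0.15 in the old group. No array lay above 0.04, and the lowest values in marrow and in the old group fell on the swapped arrays. The average effect was -0.213 (SE 0.063, limma adjusted p = 0.105) against 0.12 under the channel reading. Slc6a20a, a proline carrier, was most negative in young bone, at -0.12, -0.28 and -0.50. It lay at -0.08, 0.25 and -0.20 in young marrow and at -0.41, -0.01 and -0.10 in the old group. The effect in young bone was -0.281 (SE 0.12, limma adjusted p = 0.534).

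A different pattern marked the large neutral exchanger. Slc7a5, its transport subunit, read 0.10, -0.23 and 0.23 in young bone, 0.215, 0.55 and -0.26 in young marrow, and -0.075, -0.08 and -0.515 in the old group. Slc3a2, its heavy chain, read -0.015, -0.195 and 0.29, then 0.11, 0.435 and -0.35, and then -0.16, -0.09 and -0.035. Both had their highest marrow and bone values on the swapped arrays. For Slc7a5 the SD over the 3 marrow arrays was 0.407, against group means from -0.223 to 0.168. Separate features of a gene ran together across the 9 arrays, at r = 0.99 for Slc7a5 and 0.94 for Slc3a2 (a description, since features share the hybridised RNA). The average effect of Slc7a5 was 0.053 (SE 0.077) and turned to -0.18 under the channel reading. Slc7a1, the importer of arginine and lysine, gave 0.07, -0.185 and 0.085 in young bone, 0.11, 0.17 and -0.105 in young marrow, and -0.285, -0.215 and -0.31 in the old group. The old arrays lay below every young one (the share of all rows with such a separation is not given), with an effect of -0.248 (SE 0.089, limma adjusted p = 0.227).

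The remaining 4 varied from array to array. Slc43a1, a leucine carrier, spread from -0.67 on young bone 2 and young marrow 3 to 0.28 on young marrow 2. Slc6a9, a glycine importer used in heme synthesis, was at -0.30, -0.33 and -0.36 in the old group and between -0.47 and 0.31 on the young arrays. Slc6a15, a neutral amino acid carrier, lay between -0.46 and 0.15, and Slc32a1, which fills vesicles with GABA and glycine, between -0.39 and 0.14.

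Per array, the class median was -0.015, -0.185 and 0.085 in young bone, 0.0, 0.23 and -0.25 in young marrow, and -0.285, -0.10 and -0.16 in the old group. Erythroid marker genes, of which 4 of 28 listed were measured (Ank1, Hbb-b1, Kel and Trim10), had medians of 0.057, -0.325 and 0.148, then -0.055, 0.112 and -0.218, and then -0.108, -0.197 and -0.155 on the same arrays. Both series of medians had their highest young values on the swapped arrays and lay below 0 on all 3 old arrays. None of the 4 passed in the average, and their part in the amino acid values was not tested.

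**Figure D2:**
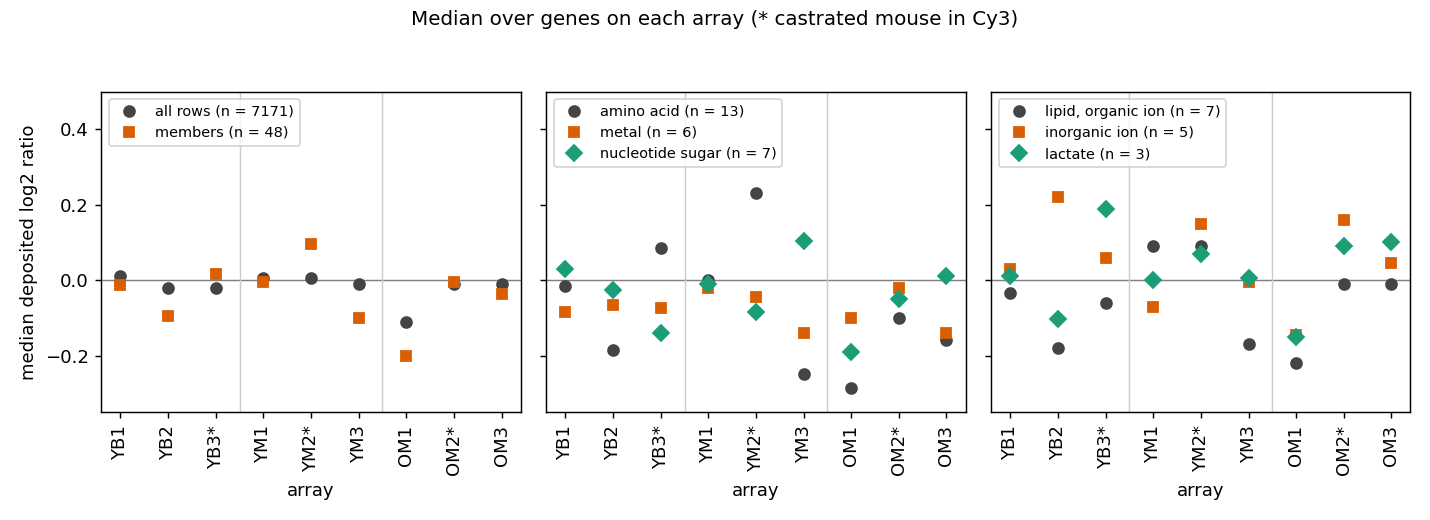
Median deposited log2 ratio (vertical axis) on each of the 9 arrays (horizontal axis, an asterisk marking the swapped arrays), for all rows and the 48 members, and for 6 of the substrate classes. All rows stay near 0 apart from old 1 at -0.11, while the amino acid class ranges from -0.285 on old 1 to 0.23 on young marrow 2.

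Genes of the amino acid response, which senses shortage through Eif2ak4 and signals through mTORC1 at the lysosome, gave 12 measured of 29 listed. None passed in the average, with 4 above 0, 8 below and a median of -0.02.

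Glucose was represented by Slc5a4b alone, a member of the sodium-glucose cotransporter family. It read -0.19, -0.10 and -0.20 in young bone, 0.20, -0.30 and -0.02 in young marrow, and 0.96, 0.19 and 0.14 in the old group. Every young bone array lay below 0 and every old array above (the share of all rows with such a split is not given), and old 1 was the highest value by far. The old effect was 0.385 (SE 0.141, limma adjusted p = 0.233). Without old 1 it was 0.165 (adjusted p = 0.757), and without old 3 it was 0.575 (0.017), so its size rests on old 1. The effect in young bone was -0.208 (SE 0.141, adjusted p = 0.839). Skeletal muscle markers, 7 measured, had medians of -0.659 in young bone and 0.414 in the old group, with 0.93 on old 1, and their part in the values of Slc5a4b was not tested.

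Metal transporters held the one gene that passed. Slc30a5, which loads zinc into the early secretory pathway, read -0.01, -0.04 and 0.18 in young bone, 0.26, 0.47 and 0.46 in young marrow, and -0.01, 0.33 and 0.07 in the old group. The 3 marrow arrays were all above every young bone array, and the share of all rows with such a separation is not given. In each group the highest array was the swapped one, in young marrow by a small margin (0.47 against 0.46). Group means were 0.043 ± 0.119, 0.397 ± 0.118 and 0.13 ± 0.178 (SD, n = 3 each). In the average Slc30a5 rose by 0.224 (SE 0.051, 95% interval 0.111 to 0.337, limma adjusted p = 0.0406), a fold of 1.17 in castrated over sham. In young marrow alone the effect was 0.431 (SE 0.084), outside the threshold at a limma adjusted p of 0.0573. Among the single arrays left out, it was inside without old 3 alone (0.0381). Without young marrow 1, 2 or 3 the adjusted p was 0.258, 0.444 or 0.381. The channel reading put the marrow effect at 0.009. By channel the average was -0.102, so the direction turns, and on the 6 unswapped arrays, where the readings are identical, it was 0.122 (adjusted p = 0.393). The call was lost without young bone 1 (adjusted p = 0.0889), young bone 2 (0.0748), young bone 3 (0.151), young marrow 1 (0.0935), young marrow 2 (0.173), young marrow 3 (0.088) or old 2 (0.23). It remained without old 1 (0.0396) and old 3 (0.0365), and the effect stayed between 0.20 and 0.248 in all 9 cases.

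The copper importer gene and 1 of the 2 zinc importer genes lay below 0 on every array. Slc31a1, the main copper importer, was at -0.11, -0.09 and -0.13 in young bone, -0.12, -0.07 and -0.12 in young marrow, and -0.31, -0.17 and -0.25 in the old group. All 9 were below 0, the young arrays lay close together, and no old array overlapped a young one. The share of all rows without such overlap is not given. Its average effect was -0.145 (SE 0.047, 95% interval -0.25 to -0.04, limma adjusted p = 0.144), and -0.022 under the channel reading. In the old group the effect was -0.236 (SE 0.079, adjusted p = 0.207). Slc39a8 read -0.12, -0.54 and -0.02 in young bone, -0.01, -0.14 and -0.14 in young marrow, and -0.19, -0.06 and -0.22 in the old group. It stayed below 0 throughout, with young bone 2 far below the rest, and the average was -0.138 (SE 0.063, limma adjusted p = 0.315). Slc48a1, which exports heme from endosomes and lysosomes, spread from -0.41 on old 1 to 0.28 on young marrow 2. Slc30a9, a zinc transporter, ran from -0.23 on young marrow 3 to 0.38 on old 1, and Slc39a14, an importer of zinc and iron, from -0.35 on young bone 3 to 0.56 on young bone 2. In all, 2 of the 6 metal genes were above 0 in the average and 4 below, with a median of -0.052.

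Zinc- and copper-binding genes, 6 measured of 13 listed, held 1 above 0 and 5 below in the average, with a median of -0.115 and none past the threshold. By channel 4 lay above 0 and 2 below, with a median of 0.013. The metallothionein gene Mt1, whose product buffers zinc and copper, was nearest to it at -0.204 (SE 0.053, limma adjusted p = 0.0667) and below 0 on 8 of 9 arrays, and it passed without old 3 (adjusted p = 0.0355) alone among the single arrays left out, but by channel it was at 0.096. Iron and heme genes, 10 of 32, had 4 above and 6 below, a median of -0.038 and none past the threshold, against 1 above, 9 below and -0.12 by channel.

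**Figure D3:**
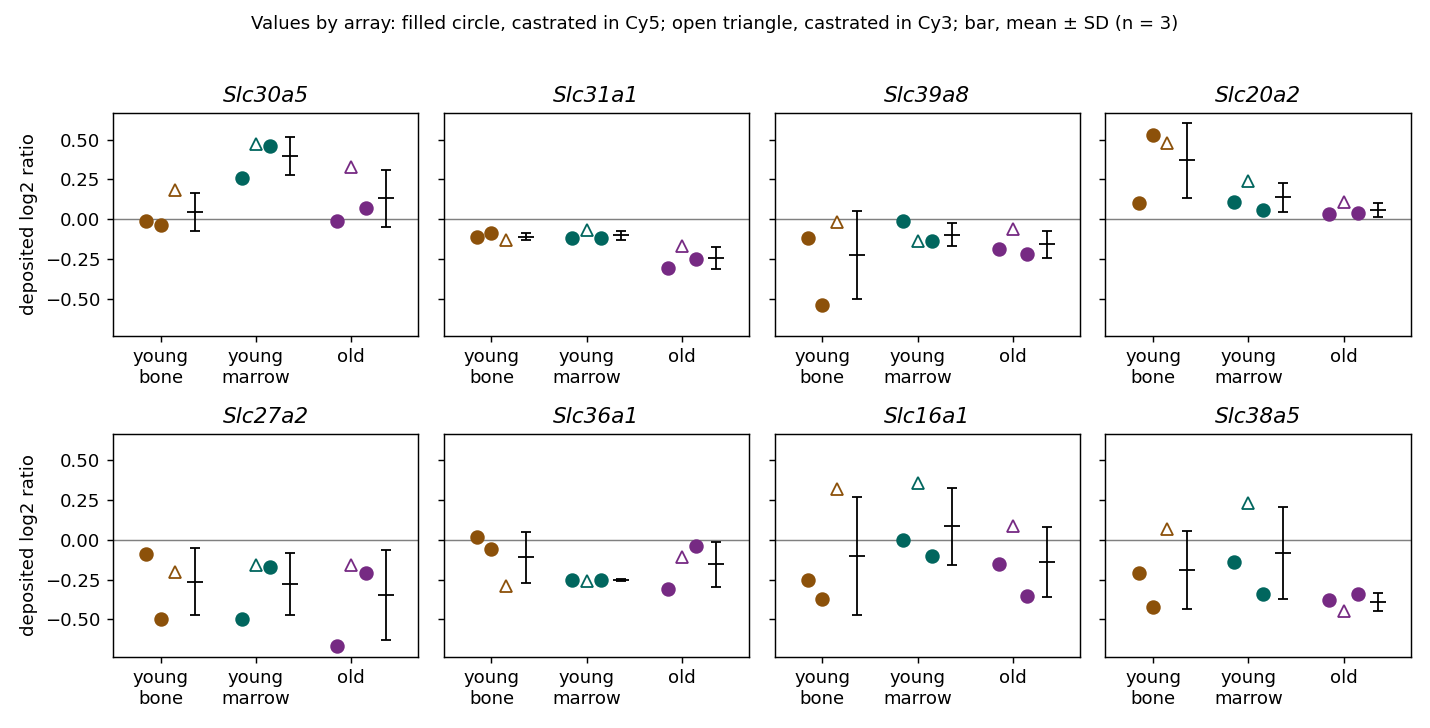
Deposited log2 ratios (vertical axis) of 8 members by group (horizontal axis), with filled circles for arrays with the castrated mouse in Cy5, open triangles for swapped arrays, and bars for the mean ± SD of the 3 arrays. Slc31a1 and Slc27a2 lie below 0 on all 9 arrays in both dye orientations, while the triangles of Slc16a1 stand above the circles in each group.

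Lactate and monocarboxylate carriers were all close to 0 in the average, with 3 of 3 above and a median of 0.027, against 3 of 3 below and -0.036 by channel. Slc16a1, the widely expressed lactate and pyruvate carrier, read -0.25, -0.37 and 0.32 in young bone, 0, 0.36 and -0.10 in young marrow, and -0.15, 0.09 and -0.35 in the old group. Its 3 positive values were exactly those of the swapped arrays, and no unswapped array was above 0. Under the castrated-over-sham reading the average was 0.027 (SE 0.054, 95% interval -0.093 to 0.147, limma adjusted p = 0.891). By channel it was -0.23 (SE 0.062, limma adjusted p = 0.893), the largest of the 48 in size, and the mean over the unswapped arrays was -0.203. The value of Slc16a1 thus depends on the reading, and it did not pass under either. Slc20a1, Slc14a1 and Slc19a1, described below, likewise had the highest value of each young group on its swapped array. Slc16a7, a high-affinity monocarboxylate carrier, stayed between -0.103 and 0.143, but its 3 features disagreed, with r from -0.70 to 0.96, and 2 of them are named by a genomic clone. Slc16a9 had values on 8 arrays, from -0.50 on old 1 to 0.22 on young marrow 1.

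Of the genes of glycolysis and lactate handling, 12 of 22 were measured, and 11 lay below 0 in the average, with a median of -0.139. By channel 6 lay above 0 and 6 below, with a median of 0.004, so the shared sign depends on the reading. Embigin (Emb), a chaperone of the lactate carriers, and the glycolytic enzyme aldolase A (Aldoa) passed. Emb gave -0.59, -1.235 and -0.48 in young bone, -0.53, -0.41 and -0.145 in young marrow, and -0.62, -0.46 and 0.005 in the old group. It fell by 0.485 (SE 0.098, limma adjusted p = 0.0241), being below 0 on 8 of 9 arrays. Its call was lost without young bone 3 (adjusted p = 0.0513), young marrow 1 (0.079), young marrow 2 (0.188) or old 2 (0.182). Aldoa fell by 0.247 (SE 0.059, limma adjusted p = 0.0498), at the edge of the threshold, and was below 0 on 7 of 9. It kept the call without young bone 2 (0.0488) and old 3 (0.0357), while without any other single array its adjusted p lay between 0.0505 (old 1) and 0.302 (old 2), with young bone 1 at 0.102, young bone 3 at 0.164, and young marrow 1, 2 and 3 at 0.141, 0.156 and 0.113. By channel Emb was at -0.035 and Aldoa at 0.078, and neither passed.

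Nucleoside uptake was covered by Slc28a2, a sodium-coupled importer of purine nucleosides. It read -0.22, -0.55 and 0.03 in young bone, -0.25, -0.03 and -0.07 in young marrow, and -0.36, 0.06 and 0.11 in the old group. It was below 0 on 6 of 9 arrays, with an average of -0.102 (SE 0.069, limma adjusted p = 0.568). Of the genes of nucleoside metabolism, 5 of 21 were measured, and all 5 were below 0 with a median of -0.153, against 4 of 5 and -0.052 by channel. Nt5e, the surface enzyme that makes adenosine from AMP, passed. Its ratio was -0.20, -0.47 and -0.10 in young bone, -0.54, -0.26 and -0.25 in young marrow, and -0.73, -0.19 and -0.47 in the old group. All 9 values were below 0, and it fell by 0.313 (SE 0.062, limma adjusted p = 0.0214), against -0.13 under the channel reading. The call was lost without young bone 3 (adjusted p = 0.104), young marrow 1 (0.0746), young marrow 2 (0.201) or old 2 (0.0813).

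Inorganic ion carriers had 3 of 5 above 0, with a median of 0.06, against 1 of 5 and -0.066 by channel. Slc20a2, a sodium-phosphate importer, was at 0.10, 0.53 and 0.48 in young bone, 0.11, 0.24 and 0.06 in young marrow, and 0.03, 0.11 and 0.04 in the old group. Each of the 9 was above 0, and young bone 2 and 3 were the highest. In the average the effect was 0.211 (SE 0.058, 95% interval 0.083 to 0.339, limma adjusted p = 0.0817), and in young bone 0.392 (SE 0.096, adjusted p = 0.175). By channel no average of this class was above 0.006, so the effect of Slc20a2 depends on the reading. Slc20a1, the other phosphate importer of that family, read -0.335, -0.26 and 0.06 in young bone, -0.085, 0.28 and -0.07 in young marrow, and -0.105, 0.195 and -0.235 in the old group. Here the 3 swapped arrays were positive and the 6 others negative, so the average was -0.002 (SE 0.048) under one reading and -0.18 (SE 0.058) under the other. Slc9a8, a sodium-proton exchanger of the Golgi and endosomes, ran from -0.54 on young marrow 3 to 0.40 on young bone 3. Slc12a2, the sodium-potassium-chloride cotransporter, was above 0 on 7 of 9 arrays, from -0.145 to 0.22. Slc4a4, a sodium-bicarbonate cotransporter, had values on 7 arrays from -0.29 to 0.29.

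The Slc35 genes were classed by family name as nucleotide sugar carriers, which feed glycosylation in the Golgi, so a member may carry another substrate. All 7 lay below 0 in the average, with a median of -0.033, but under the channel reading 6 of 7 lay above 0. Slc35f1, the furthest from 0, was at 0.02, -0.19 and -0.14 in young bone, -0.17 and -0.16 on the 2 marrow arrays with a value, and -0.41, -0.25 and -0.07 in the old group. Its average was -0.173 (SE 0.062, limma adjusted p = 0.198), and its feature is named by a genomic clone. Slc35c1, the GDP-fucose carrier, stayed between -0.23 and 0.16, with an average of -0.053 (SE 0.062). The widest spread of any member was that of Slc35d2, at 0.16, 0.72 and -0.64 in young bone, with values from -0.40 to 0.05 in young marrow and from 0.01 to 0.58 in the old group. The UDP-galactose carrier gene Slc35a2 had the narrowest range of the class, from -0.215 to 0.11, although its features ran apart across arrays (r = -0.33). Slc35a3, the carrier of UDP-N-acetylglucosamine, ran from -0.385 to 0.19, Slc35b1 from -0.36 to 0.30 and Slc35b3, which carries the sulfate donor PAPS, from -0.29 to 0.187.

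Lipid and organic ion carriers had 3 of 7 above 0 and a median of -0.027. Slc27a2, which imports and activates long fatty acids, read -0.09, -0.50 and -0.20 in young bone, -0.50, -0.16 and -0.17 in young marrow, and -0.67, -0.16 and -0.21 in the old group. All 9 lay below 0 in both dye orientations, and 1 array in each group was much lower than its mates. It had the most negative average of the 48, at -0.265 (SE 0.073, 95% interval -0.427 to -0.103, limma adjusted p = 0.0825). The channel reading gave -0.092 and the unswapped arrays -0.357. Without old 3 Slc27a2 passed in the average, at -0.292 with an adjusted p of 0.0322, while without any other single array its adjusted p lay between 0.0764 and 0.367. Adipocyte markers, 4 measured of 14, were all above 0 in the average with 3 past the threshold and a median of 0.659, the opposite sign to Slc27a2. Slc22a4, a carrier of ergothioneine, was at -0.48, -0.55 and -0.09 in young bone, 0.09, 0.09 and -0.75 in young marrow, and -0.08, -0.12 and -0.01 in the old group. Marrow held its highest and lowest values, and the young bone effect was -0.331 (SE 0.148, limma adjusted p = 0.584). Slc44a2, a choline transporter-like gene, was above 0 on 8 of 9 arrays with values from -0.18 to 0.285. Slc22a23 ran from -0.41 to 0.30, Slc10a7 from -0.46 to 0.26, Slc13a4 from -0.38 to 0.65 and Slc44a3 from -0.18 to 0.18.

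Vitamin carriers were near 0 in the average under the castrated-over-sham reading. Slc19a1, the folate importer, read -0.11, -0.37 and 0.46 in young bone, 0.01, 0.30 and -0.14 in young marrow, and -0.51, -0.28 and -0.08 in the old group. The highest value in each young group was that of the swapped array, and all old values were below 0. Its average was -0.02 (SE 0.076, limma adjusted p = 0.944), against -0.18 under the channel reading. The old effect was -0.23 (SE 0.127, adjusted p = 0.328), moving to -0.029 without old 2 (0.959) and to -0.395 without old 3 (0.0485). Slc23a2, a vitamin C importer, ran from -0.35 to 0.20, with an average of -0.021 (SE 0.071). Of the other genes, the red cell urea transporter gene Slc14a1 was at -0.03, -0.38 and 0.34 in young bone, 0.05, 0.26 and -0.04 in young marrow, and -0.04, -0.02 and -0.27 in the old group. Its average was 0.038 (SE 0.063) under the castrated-over-sham reading and -0.156 (SE 0.067) under the channel reading. Slc7a6os was above 0 on 8 of 9 arrays, with an average of 0.106 (SE 0.054, limma adjusted p = 0.395). Slc14a2 spread from -0.47 to 0.46.

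**Figure D4:**
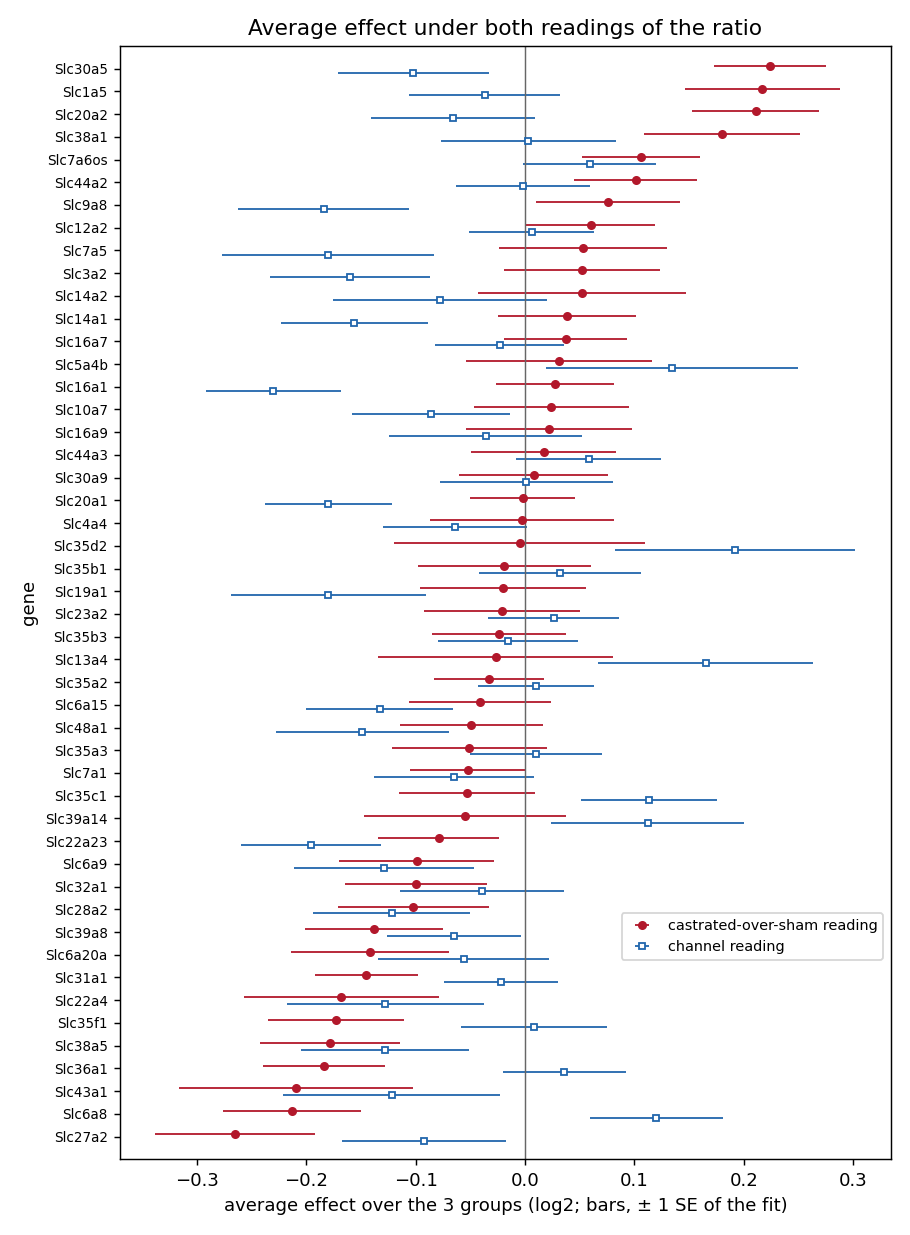
Average effect over the 3 groups (horizontal axis, log2, bars ± 1 SE of the fit) for each of the 48 genes (vertical axis), with filled red circles for the castrated-over-sham reading and open blue squares for the channel reading. Slc30a5 stands at 0.224 and -0.102, and Slc16a1 at 0.027 and -0.23.

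The effects within each group ask where a difference lies. In young bone 23 rows (0.321%) and 0 members passed in limma, and 4 members (8.33%) against 8.51% of all rows had an unadjusted p under 0.05. In young marrow 53 rows (0.739%) and 0 members passed, with 3 members (6.25%) against 10.2% at the unadjusted level. In the old group 61 rows (0.851%) and 0 members passed, with 7 members (14.6%) against 18.5%. Of those 7, Slc5a4b was above 0 (9.48% of all rows), and Slc27a2, Slc31a1, Slc35f1, Slc38a5, Slc6a9 and Slc7a1 were below (8.98% of all rows). Medians of the members were 0.009 in young bone, 0.008 in young marrow and -0.065 in the old group. Members above 0 numbered 26, 26 and 15 of 48, and all rows above 0 numbered 3440, 3495 and 3027 of 7171, so the old group was lowest in both. By channel the members' medians were -0.05, -0.031 and -0.071, with 17, 19 and 13 above 0. On old 1 the members' median was -0.20 against -0.11 for all rows. By channel 0 rows and 0 members passed in each group, and at the unadjusted level there were 4 members in young bone (6.55% of all rows), 0 in young marrow (0.781%) and 0 in the old group (2.37%).

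Differences between the groups ask whether the castration response differs between the young tissues, or between the old group and each young one. The old group differs in both age and time since castration, and may also hold bone, and these cannot be told apart. Between young marrow and young bone 0 of 7171 rows passed in limma, with 335 rows (4.67%) and 1 member at an unadjusted p under 0.05. That member was Slc30a5, higher in marrow by 0.353 (SE 0.117, 95% interval 0.093 to 0.614, adjusted p = 0.934). The next by size of p were Slc9a8 at -0.307, Slc20a1 at 0.22 and Slc20a2 at -0.233, each with an adjusted p of 0.969. Between the old group and young marrow 0 rows passed, with 1055 (14.7%) and 3 members at the unadjusted level. These were Slc7a1 at -0.328 (SE 0.123), Slc5a4b at 0.47 (SE 0.196) and Slc30a5 at -0.267 (SE 0.117), all with an adjusted p of 0.338. Slc7a5 followed at -0.392 (SE 0.178, adjusted p = 0.339). The difference of Slc5a4b was 0.23 without old 1 (adjusted p = 0.731) and 0.677 without old 3 (0.0302). Between the old group and young bone 1 row (0.0139%) and 0 members passed, with 489 rows (6.82%) and 2 members at the unadjusted level. They were Slc5a4b at 0.593 (SE 0.196) and Slc20a2 at -0.31 (SE 0.133), both with an adjusted p of 0.679. Without old 1 that of Slc5a4b was 0.353 (adjusted p = 0.999). The median SE of a member's difference was 0.155 to 0.158, so differences of the size seen for most members could not be told from 0 at this number of arrays. By channel 0 rows passed in any of the 3 differences. At the unadjusted level there were 0 members between young marrow and young bone (1.48% of all rows), 0 between the old group and young marrow (0.697%) and 3 between the old group and young bone (3.85%), the last being Slc23a2, Slc35a3 and Slc4a4. These 3 differences share their groups and are not independent.

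Cell type markers differed on the same arrays under the castrated-over-sham reading. B lymphocyte markers, 11 of 20 measured, had a median of 0.913 in the average with 9 above the threshold. Granulocyte markers, 9 of 27 measured, had a median of -0.431 with 8 past the threshold and below 0. Monocyte and macrophage markers, 8 of 19, had a median of -0.022 with 2 past it and below 0. In the average 4 of these 8 lay above 0 and 4 below. In the old group alone Cd163 passed the threshold above 0, at 0.498 (limma adjusted p = 0.0309). Bone matrix markers, 9 of 21, had a median of 0.263 and muscle markers, 7 of 18, of -0.122, with none past it. Under the channel reading none of these passed. On single arrays the B lymphocyte median lay between 0.49 and 1.015 and the granulocyte median between -0.73 and -0.25, each with 1 sign on all 9. The muscle median lay at -1.31 on young bone 1 and 0.93 on old 1. The part of these shifts in the values of Slc30a5, Slc31a1, Slc27a2, Emb, Nt5e or any other gene was not tested.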

How the data were processed

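The authors deposited 1 table of log ratios for the 9 arrays, read here as log2; log base, direction of the ratio, background treatment, normalization and signal over background are not given in the sources used here. Per the labels' protocols, total RNA from pulverized bone became aminoallyl cDNA coupled to Cy3 or Cy5. Genes came from the platform annotation (8050 features with 1 gene, 672 with several, 2830 with none; 7880 of the 8050 were found by gene ID in the RefSeq gene table). Features of a gene were averaged and unnamed features kept as rows of their own, which gave 7171 rows with a value on at least 2 arrays of each group and 1 swapped array. limma 3.58.1 (R 4.3.3) fitted a coefficient for each group plus 1 dye term shared by all 9 arrays (5 residual degrees of freedom with 9 values). Effects are therefore adjusted for dye and can differ from plain means, and SEs are those of the fit. The Benjamini-Hochberg adjustment covered every row of a comparison, with a threshold of 0.05.

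Replicate numbers of young bone and young marrow were checked for pairing. Same-numbered arrays correlated at -0.096, -0.368 and -0.063 in their deviations from the group means. These deviations were not adjusted for dye, and bone and marrow arrays numbered 2 and 3 differ in dye orientation, so the check cannot decide. No pairs were formed, since shared mice are not stated. On simulated data with 200 of 7171 rows changed, the average recovered 84% of changes of 0.5 and 98% of changes of 1, and young bone 34% and 89%. Members and gene lists were chosen with earlier results of these data known. Named genes were Slc16a1, members past the threshold, the 3 of smallest p in each direction in each effect, 2 in each direction in each difference, 2 per substrate class, and those with 1 sign on all 9 arrays; the other members are given for completeness, and some were singled out after their values were seen. The lists' named genes are those past the threshold or, without one, taken from the 3 of smallest p. Alternatives covered the reading, dye term, arrays used, centring, scaling, weights, filter, averaging, prior, replicate block and leaving out each array. Motifs were searched in RefSeq promoter windows; probe sequences were not used here.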

Additional observations from a re-analysis of the deposited data

Results flagged for a closer look

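Slc5a4b had all 3 young bone arrays below 0 (mean -0.163) and all 3 old arrays above 0 (mean 0.43). All arrays of the 2 groups thus lay on opposite sides of 0 under the castrated-over-sham reading. This was looked for among the named members only, and the share of all rows that show it is not given, so it is a description. The difference was 0.593 in limma and did not pass over all rows, with an adjusted p of 0.679. The old mean rests on old 1 at 0.96, the others being 0.19 and 0.14, and without old 1 the difference was 0.353 (adjusted p = 0.999). By channel it was 0.333. Skeletal muscle markers had medians of -0.659 in young bone and 0.414 in the old group, with 0.93 on old 1, and their part was not tested.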

How the results depend on the processing

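The average count of 1 passing member became 0 under the channel reading, on the unswapped arrays only and with the replicate block, and 9 with array weights (Slc1a5, Slc20a2, Slc27a2, Slc30a5, Slc31a1, Slc36a1, Slc38a1, Slc38a5 and Slc6a8). Leaving out 1 array gave 0 to 2. Without the dye term it stayed 1, but the gene was Slc27a2 (-0.296, adjusted p = 0.0331), with Slc30a5 at 0.19 (0.0744). With the replicate block Slc30a5 was at 0.222 (0.143). Of the passing genes Slc30a5, Emb, Aldoa and Nt5e, Slc30a5 and Aldoa changed sign in the average under the channel reading, to -0.102 and 0.078. Averages that had not passed turned too, such as that of Mt1, from -0.204 to 0.096. Those of Slc6a8, Slc7a5, Slc16a1 and Slc14a1, given above, also turned. In young marrow the count of 0 became 1 (Slc30a5) with median-centred arrays or arrays scaled to equal spread, 6 with array weights, and 0 to 1 on leaving out an array. In the old group it became 1 with array weights and 0 to 3 on leaving out an array, and in the old group against young marrow 0 to 1. In every case the higher count came without old 3. These settings let larger p pass over all rows. In the old group a limma p of 0.0077 was adjusted to 0.0485 without old 3, while 0.00931 was adjusted to 0.19 in the main fit. In young marrow 0.00451 was adjusted to 0.0375 with array weights, while 0.000448 was adjusted to 0.0573 in the main fit. The share of all rows past the threshold there is not given, so these counts are no result about the members. Young bone and the other differences kept 0 members under every alternative run. Whether equal replicate numbers mark the same mice is not stated, so the block was not used as the pairing of the design. The correlations of same-numbered arrays cannot decide it, since they were not adjusted for dye. Over all rows the average count of 280 became 0 under the channel reading, 70 on the unswapped arrays, 826 with array weights and 124 with the block. The cause of these shifts was not tested. Without intensities, the number of arrays is the only limit on precision that can be given.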

Other observations

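Transporters outside the solute carrier superfamily showed little. ABC transporter genes, which pump lipids, drugs and conjugates with the energy of ATP, gave 10 measured of 30 listed, 3 above 0 and 7 below in the average, with a median of -0.075 and none past the threshold in limma (2 had an unadjusted p under 0.05, both below 0). The cation-pumping ATPase genes, 5 of 20, had 1 above 0 and 4 below, a median of -0.062 and none past the threshold. Under the channel reading the medians were -0.059 and -0.017.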
